A study of Rattus norvegicus with 47 samples.

Results

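The enzymes described here were the ubiquitin conjugating enzymes (Ube2 genes) and the ubiquitin-specific proteases (Usp genes) of rat whole blood. The members were all probes of the bead array whose annotated symbol began with Ube2 or Usp and went on with a digit or a letter. The rule gave 65 of 13337 annotated genes, measured by 69 of 22523 probes, of which 28 probes were Ube2 and 41 were Usp. All 69 matched the RefSeq gene table by their Entrez identifier under the same symbol. Of these, 47 probes passed the signal filter described below, 21 of them Ube2 and 26 Usp, for 44 symbols, among 9416 tested probes in all.

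Ubiquitin is a small protein that is attached to other proteins in 3 steps. An activating enzyme (E1) charges it, a conjugating enzyme (E2, the Ube2 family) carries it, and a ligase (E3) brings the carrier to the substrate. Deubiquitinases, of which the Usp family is the largest, remove or trim it. The kind of chain that is built decides whether the substrate goes to the proteasome, takes part in signalling or DNA repair, or is sorted through membranes. A few Ube2 enzymes carry related proteins in place of ubiquitin: Ube2m and Ube2f carry Nedd8, and Ube2l6 carries the interferon-induced Isg15, which the protease Usp18 removes. Maturing red cells are a known site of intense ubiquitin-dependent protein removal, and whole blood holds their RNA beside that of platelets and white cells. The prefix rule also takes in symbols of other function, such as Usp6nl, a GTPase-activating protein, and Uspl1, a protease of Sumo.

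Blood came from adult Sprague Dawley rats, 1 array per rat. The groups were male rats with an extreme (8) or a minimal (8) behavioural response after exposure to predator scent, unexposed male controls (8), females with an extreme (8) or a minimal (8) response, and unexposed female controls (7 arrays, 6 fitted). Rats were classed by behaviour by the submitters, the unexposed controls were tested for behaviour too, and the time from exposure to blood collection was not given in the sources used here. Blood from every group was stabilised in PAXgene tubes and depleted of globin messenger RNA. The array of female control replicate 2 carried no usable signal and was left out. The other arrays had 5921 to 8770 detected probes, and precision is set by how many arrays a group had. Of 25 listed erythroid marker genes 16 had a tested probe, and 15 were detected on all 46 arrays. The same counts were 17, 11 and 10 for T cells, 16, 10 and 7 for platelets, and 18, 11 and 4 for neutrophils. They were 12, 8 and 4 for cytotoxic lymphocytes, 12, 8 and 2 for B cells, and 12, 4 and 1 for monocytes. Of the 6 female control arrays, replicates 1, 3, 4 and 5 stood apart from all others, with high immediate early and low platelet genes, and counts of calls in exposed females, for the exposure difference between sexes and for sex are given with and without them.

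The question for exposure was which of these enzymes differed in blood between rats exposed to predator scent and unexposed rats, in each sex. In males, 3 members rose with exposure and kept their calls whichever array was left out: Usp14, a deubiquitinase that docks on the proteasome and trims chains there, Ube2g1, an E2 that lengthens lysine-48 chains on cullin-ligase substrates, and Ube2q1, an E2 with an extended amino-terminal region. The promoters of these 3 genes are printed because their calls in exposed males did not hang on any single array. The windows run from 250 bases before to 50 bases after the annotated start, from RefSeq on build GRCr8: chr18:1330287-1330586 on the minus strand for Usp14, chr10:57724258-57724557 on the plus strand for Ube2g1 and chr2:177496310-177496609 on the plus strand for Ube2q1. Capitals mark the GC box core GGGCGG, searched on both strands.
Usp14: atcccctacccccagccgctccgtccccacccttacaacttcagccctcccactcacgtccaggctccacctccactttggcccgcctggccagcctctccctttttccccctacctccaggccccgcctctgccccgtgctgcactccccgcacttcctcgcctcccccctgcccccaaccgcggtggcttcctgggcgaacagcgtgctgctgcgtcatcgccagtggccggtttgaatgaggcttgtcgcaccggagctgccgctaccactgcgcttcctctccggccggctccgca
Ube2g1: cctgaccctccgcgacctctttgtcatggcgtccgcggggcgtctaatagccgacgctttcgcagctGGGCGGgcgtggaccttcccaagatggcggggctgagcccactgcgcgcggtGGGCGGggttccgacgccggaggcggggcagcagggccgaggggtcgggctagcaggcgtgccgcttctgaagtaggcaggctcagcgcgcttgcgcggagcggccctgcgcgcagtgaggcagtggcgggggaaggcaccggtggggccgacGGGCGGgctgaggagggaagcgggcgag
Ube2q1: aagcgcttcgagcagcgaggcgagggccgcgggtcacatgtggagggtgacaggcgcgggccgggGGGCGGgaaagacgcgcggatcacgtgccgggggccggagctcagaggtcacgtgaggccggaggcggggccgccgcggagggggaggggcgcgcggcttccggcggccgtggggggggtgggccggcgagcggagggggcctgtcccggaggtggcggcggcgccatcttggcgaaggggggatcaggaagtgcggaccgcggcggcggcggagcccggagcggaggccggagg
The core was present 3 times in the Ube2g1 window, 1 time in that of Ube2q1 and 0 times in that of Usp14, and no 2 matches overlapped. It was present in 33.1% of the 33469 RefSeq promoter windows of this length and in 26 of the 38 tested member symbols that had a window. None of the 3 windows held CCAAT (37.5% of all windows), the cAMP response element TGACGTCA (1.83%) or the heat shock pattern GAANNTTC (8.59%), each read on both strands. The share of G and C was 68.7% in Usp14, 73.7% in Ube2g1 and 79% in Ube2q1.

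Levels are background-corrected, quantile-normalized log2 intensities, comparable between arrays for 1 probe but not between probes. Usp14 (ILMN_1350964) had a lowest, median and highest level of 7.39, 7.82 and 8.32 in extreme response males, 7.53, 8.06 and 8.52 in minimal response males, and 7.07, 7.32 and 7.55 in control males. Of the 16 exposed males 14 lay above every control, and the ranges overlapped at their edges. Ube2g1 (ILMN_1360689) reached 5.99, 6.97 and 8.01 in extreme, 6.57, 7.48 and 8.46 in minimal and 5.84, 6.28 and 6.68 in control males. Its exposed groups spread widely, and the minimal response rats were the highest. Ube2q1 (ILMN_1349847) lay at 5.11, 5.44 and 5.98 in extreme, 5.33, 5.65 and 6.17 in minimal and 4.53, 5.18 and 5.46 in control males. It was detected (detection p below 0.05) in all 16 exposed males but in 5 of 8 controls.

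**Figure D1:**
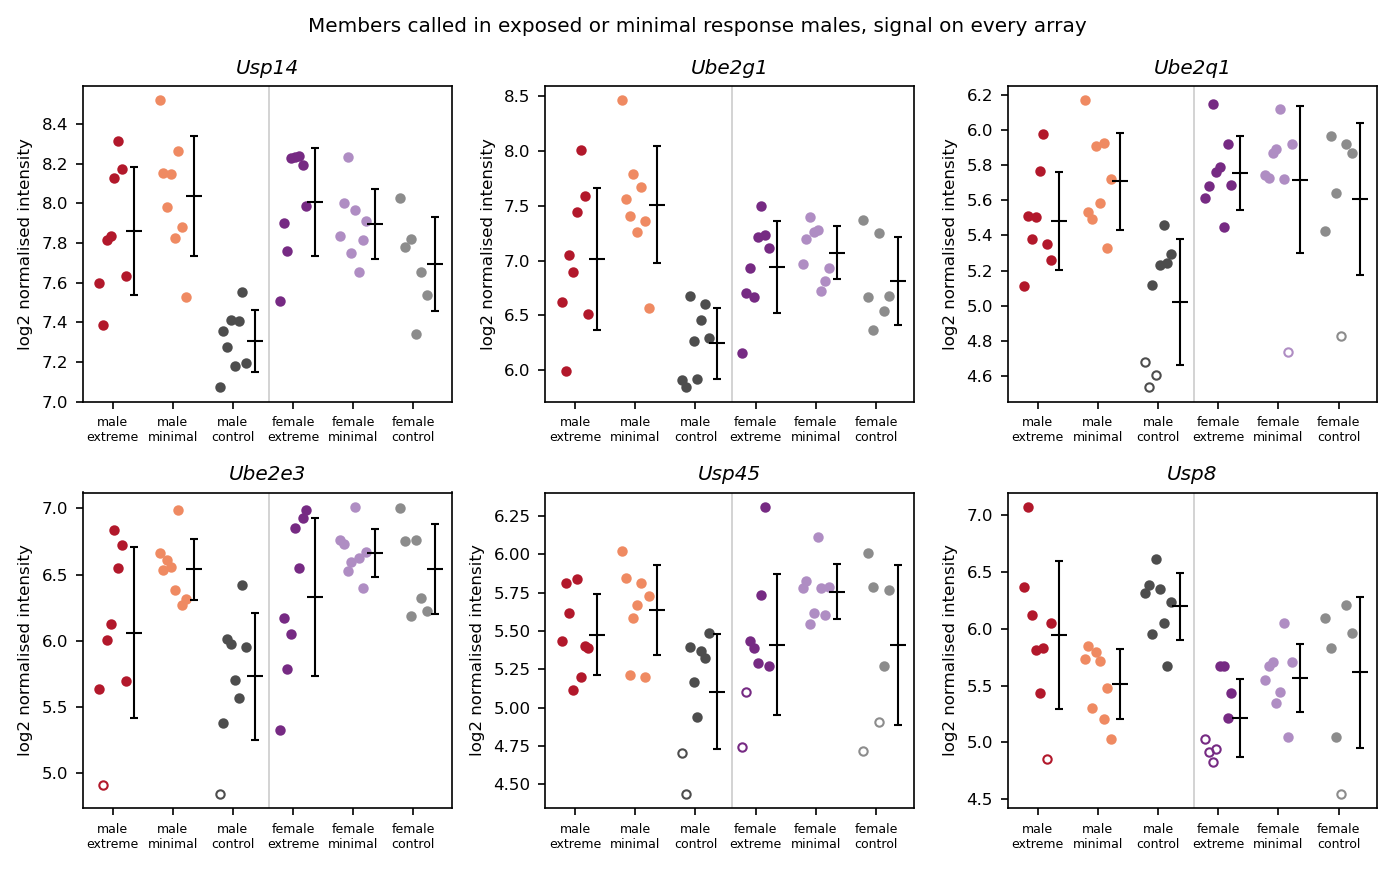
Level of 6 members on every array (y axis, log2 normalised intensity) in the 6 groups (x axis), males left and females right. Filled points were detected, open points were not, and the bar beside each group is mean ± SD. Usp14 reached at most 7.55 in male controls, against 8.52 in minimal response males.

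Exposed males, the average of the extreme and minimal response groups, were compared with control males by limma's moderated test over all 9416 probes, with Benjamini-Hochberg adjustment and calls at 0.05. Differences are log2 ± standard error. Each sample was its own rat, so p-values measure the spread between animals. Of all probes 11.2% were called, 6.23% higher and 4.97% lower, and of the 47 members 5 were called (10.6%), all higher. The share of members called was near that of all probes. Ube2g1 averaged 7.26 in exposed and 6.25 in control males, a difference of 1.02 ± 0.19 or 2.02-fold (n = 16 and 8, adjusted p = 0.000686, above the control mean in 15 of 16). Usp14 averaged 7.95 in exposed and 7.31 in control males, a 1.56-fold difference (0.64 ± 0.11, adjusted p = 0.000541, 16 of 16 above the control mean). Ube2q1 averaged 5.60 in exposed and 5.02 in control males (0.57 ± 0.14, adjusted p = 0.00661, 16 of 16). In whole blood, a change in the number of cells of a type and a change in RNA per cell cannot be told apart.

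The other called members in exposed males were Ube2e3, an E2 with a serine-rich amino-terminal extension, and Usp45, a protease that acts on the DNA repair nuclease subunit Ercc1. Ube2e3 (ILMN_1371910) had 4.91, 6.07 and 6.83 in extreme, 6.27, 6.55 and 6.99 in minimal and 4.84, 5.83 and 6.42 in control males, a difference of 0.57 ± 0.19 (adjusted p = 0.0411, above the control mean in 13 of 16). The minimal response rats were narrowly placed at the top, whereas the extreme response rats overlapped the controls over most of their range. Usp45 (ILMN_1355612) had 5.12, 5.42 and 5.84 in extreme, 5.20, 5.70 and 6.02 in minimal and 4.44, 5.25 and 5.48 in control males (0.45 ± 0.15, adjusted p = 0.0438, 16 of 16). These calls were lost when certain single arrays were left out. The Ube2e3 call was lost in 11 of 24 leave-one-out fits (male control replicates 1, 2, 5 and 6, minimal replicates 1, 3 and 6, extreme replicates 4 to 7), with adjusted p up to 0.139. The Usp45 call was lost in 12 (control replicates 1, 2, 4 and 5, minimal replicates 1, 2, 5 and 6, extreme replicates 2, 3, 5 and 7), with adjusted p up to 0.143. The calls of Usp14, Ube2g1 and Ube2q1 were lost in 0 of 24.

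With arrays scaled to their 75th percentile in place of quantile normalization, Ube2g1 was called in exposed males (1.00, adjusted p = 0.0178), while Usp14 (0.63, adjusted p = 0.0527) and Ube2q1 (0.43, adjusted p = 0.0627) were not. Over 11 alternatives the adjusted p ran from 3.57e-05 to 0.024 for Ube2g1, from 2.2e-05 to 0.0772 for Usp14 and from 0.00353 to 0.184 for Ube2q1. With 6 blood cell marker scores in the model the differences were 1.12, 0.68 and 0.61 for Ube2g1, Usp14 and Ube2q1, all called. Without the scores they were 1.02, 0.64 and 0.57. The monocyte score rested on 4 markers, 1 of them detected on all arrays, and a part of cell composition was not tested.

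Of the members that did not pass in exposed males, Usp25 differed by 0.44 ± 0.16 (adjusted p = 0.0602), Usp28 by -0.35 ± 0.12 (0.0619), Usp10 by 0.25 ± 0.10 (0.0904), Usp8 by -0.47 ± 0.18 (0.0911) and Ube2g2 by 0.29 ± 0.12 (0.102), limma adjusted p in parentheses. Over all 47 members the median difference was 0.04, against -0.01 over all tested probes. The median was 0.07 for Ube2, with 15 of 21 probes above 0, and 0.004 for Usp, with 13 of 26 above 0.

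**Figure D2:**
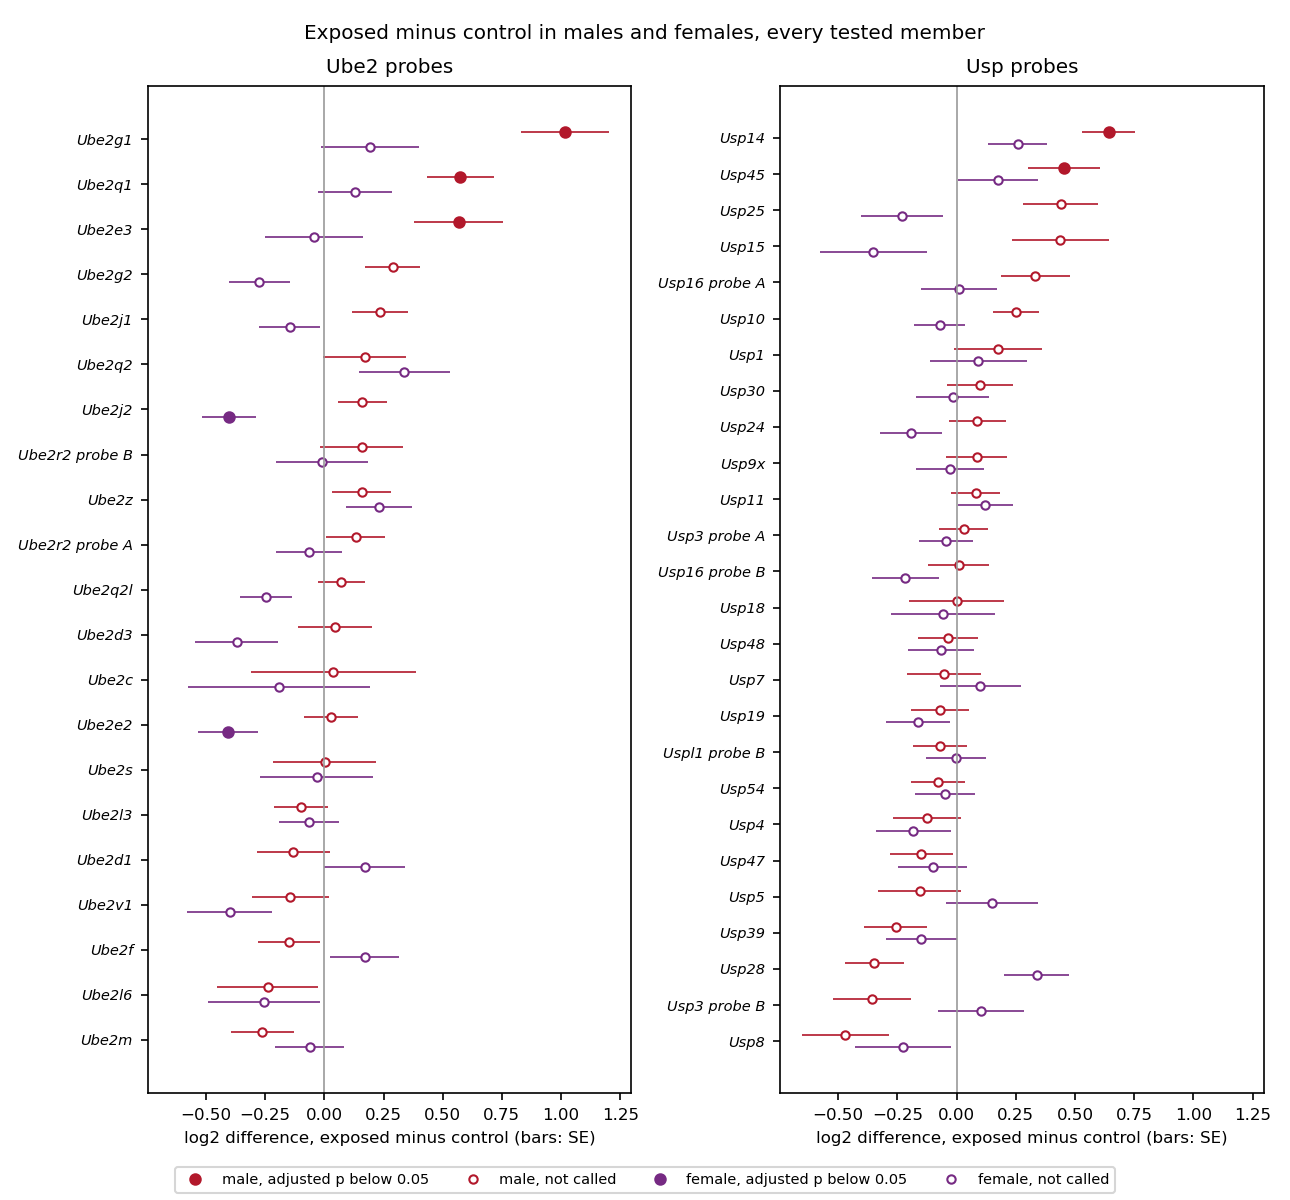
Difference of exposed from control rats (x axis, log2, bars are SE) for every tested Ube2 probe (left) and Usp probe (right), with males in red above females in purple. Filled points passed limma's adjusted p of 0.05. In males 5 members are filled, all above 0, and in females Ube2j2 and Ube2e2, both below 0.

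The response classes were also set against control males separately. In minimal response males 14.8% of all probes (8.11% higher and 6.71% lower) and 6 of 47 members (12.8%) were called. Ube2g1 rose by 1.26 ± 0.22 (2.40-fold, n = 8 each, adjusted p = 0.000159, 8 of 8 above the control mean), and Ube2e3 rose by 0.81 ± 0.22 (adjusted p = 0.00873). Usp14 rose by 0.73 ± 0.13 (adjusted p = 0.000204), Ube2q1 by 0.69 ± 0.16 (adjusted p = 0.0034) and Usp45 by 0.53 ± 0.17 (adjusted p = 0.0314). Usp8, an endosomal deubiquitinase that spares receptors from lysosomal sorting, was the member that fell. Usp8 (ILMN_1356049) had a lowest, median and highest level of 5.03, 5.60 and 5.85 in minimal response males, against 5.68, 6.28 and 6.62 in control males (-0.69 ± 0.21, adjusted p = 0.0224, below the control mean in 8 of 8). The ranges overlapped only between 5.68 and 5.85. Its call was lost without male control replicate 4 (-0.63, adjusted p = 0.0518), and that of Usp45 without control replicates 1, 2 or 5 or minimal replicates 1, 2 or 6 (adjusted p up to 0.0916). The calls of Ube2g1, Usp14, Ube2q1 and Ube2e3 were lost in 0 of 16 omissions.

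In extreme response males 0 probes were called over the whole array, so 0 members were called (0%), with 1437 probes and 9 members at an unadjusted limma p below 0.05. The 5 members of smallest p were Usp14 (0.55 ± 0.13, adjusted p = 0.0621), Ube2g1 (0.77 ± 0.22, adjusted p = 0.097), Usp28 (-0.46 ± 0.14, adjusted p = 0.11), Usp15 (0.67 ± 0.24, adjusted p = 0.144) and Ube2q1 (0.46 ± 0.16, adjusted p = 0.146). A member called in minimal but not in extreme response males is not thereby shown to differ between them. Set directly against each other, extreme and minimal response males gave 13 called probes (0.138%) and 0 members, with 7 members at an unadjusted limma p below 0.05. Ube2l6 differed by 0.69 ± 0.25 (extreme minus minimal, adjusted p = 0.206), Ube2f by 0.41 ± 0.15 (0.221), Usp4 by 0.44 ± 0.17 (0.23), Ube2g1 by -0.49 ± 0.22 (0.321) and the brighter Ube2r2 probe by 0.32 ± 0.14 (0.329). The 95% interval for Ube2g1 ran from -0.93 to -0.06.

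Beyond the members, the male exposure contrast was read over the rest of the pathway. The ubiquitin genes themselves had 0 tested probes. Over the 84 tested probes of the lists below 11 were called (13.1%), near the 11.2% of all probes. Of 6 E1 probes 1 fell, Atg7, the activating enzyme of autophagy conjugation (-0.56 ± 0.15, adjusted p = 0.00894), and Uba7, which activates Isg15, had -0.36 ± 0.18 (0.202). Of 47 E3 ligase probes 3 rose and 3 fell. Birc2, an inhibitor of apoptosis with ligase activity, rose by 0.73 ± 0.16 (adjusted p = 0.00222), Syvn1, the ligase of endoplasmic reticulum-associated degradation, rose by 0.46 ± 0.13 (0.0163), and Keap1, the substrate receptor for Nrf2, fell by 0.51 on the log2 scale (SE 0.15, 0.0187). Of 16 probes listed as deubiquitinases outside the Usp family, a list that also holds the COP9 signalosome subunit Cops6, 1 fell, Otud5 (-0.59 ± 0.17, adjusted p = 0.0181). Uchl5, another proteasome-bound deubiquitinase, had 0.57 ± 0.20 and did not pass (0.0532). Of 15 probes for ubiquitin-like proteins and their factors, Sumo2 (0.48 ± 0.12, 0.00635) and Sumo3 (0.36 ± 0.12, 0.0397) rose and the Sumo ligase Pias4 fell (-0.70 ± 0.20, 0.0186).

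In females, exposure went with lower levels of Ube2j2, a membrane-anchored E2 of endoplasmic reticulum-associated degradation, and Ube2e2, a close relative of Ube2e3. Ube2j2 (ILMN_1350044) had a lowest, median and highest level of 7.38, 8.07 and 8.37 in extreme, 7.46, 7.79 and 7.99 in minimal and 8.08, 8.20 and 8.74 in control females. The minimal response females lay entirely below the controls, and the extreme response females overlapped them. Ube2e2 (ILMN_1349255) was dim, at 4.47, 4.60 and 5.53 in extreme, 4.49, 4.71 and 5.07 in minimal and 4.50, 5.22 and 5.61 in control females. It was detected in 3 of 16 exposed and 4 of 6 control females.

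In exposed against control females 6.36% of all probes were called, 4.27% higher and 2.09% lower, and 2 of 47 members (4.26%) were, both lower. Ube2j2 averaged 7.91 in exposed and 8.31 in control females (-0.40 ± 0.11, n = 16 and 6, adjusted p = 0.0217, below the control mean in 15 of 16), and Ube2e2 averaged 4.74 in exposed and 5.15 in control females (-0.41 ± 0.13, adjusted p = 0.0404, 15 of 16). In minimal response females 5.19% of probes (3.96% higher and 1.23% lower) and 1 member were called, Ube2j2 (-0.51 ± 0.13, adjusted p = 0.00803, lower in 8 of 8). In extreme response females 5.36% of probes (3.28% higher and 2.08% lower) and 0 members were called by limma, with 1758 probes and 6 members at an unadjusted p below 0.05. Neither female call held without the 4 control arrays that stood apart: Ube2j2 then differed by -0.26 in exposed females (adjusted p = 0.994) and -0.37 in minimal response females (adjusted p = 0.986), and Ube2e2 by -0.14 (adjusted p = 0.994), with 0 members called. That fit kept only female control replicates 6 and 7. It called 0.0106% of all probes in exposed and 0% in minimal response females, so the loss of calls was not particular to the members. With 75th percentile scaling Ube2j2 differed by -0.05 (adjusted p = 0.867). Over the 11 alternatives the adjusted p for exposed females ran from 0.00719 to 0.994 for Ube2j2 and from 0.0382 to 0.994 for Ube2e2. Leaving out female control replicate 1 or 5 also ended the Ube2j2 call in exposed females (-0.36 and -0.32, adjusted p = 0.0769 and 0.124). The Ube2e2 call was lost in 12 of 22 omissions (control replicates 1, 4, 5 and 6, extreme replicates 2, 3, 5, 6 and 7, minimal replicates 2, 5 and 8), with adjusted p up to 0.195.

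Markers of other cells and states moved in the same contrast. All 10 platelet marker probes were called higher in exposed than in control females and 8 of 13 immediate early probes lower, and their part in the result was not tested. The platelet score had a range of -0.09 to 0.62 in extreme, 0.41 to 1.19 in minimal and -2.91 to 0.56 in control females. The immediate early score had a range of -0.48 to 0.06 in extreme, -0.32 to -0.05 in minimal and -0.05 to 1.38 in control females. With 6 marker scores in the model 0 members were called in exposed females. Members that did not pass were Usp28 (0.34 ± 0.14, adjusted p = 0.146), Ube2q2l (-0.25 ± 0.11, 0.191), Ube2v1 (-0.40 ± 0.18, 0.198), Ube2g2 (-0.27 ± 0.13, 0.227) and Ube2d3 (-0.37 ± 0.17, 0.228) in exposed females. In minimal response females they were Ube2v1 (-0.60 ± 0.20, 0.0729), Ube2e2 (-0.42 ± 0.14, 0.082), Usp15 (-0.65 ± 0.26, 0.148), Ube2d3 (-0.49 ± 0.20, 0.155) and Ube2z (0.30 ± 0.16, 0.333). In extreme response females they were Ube2e2 (-0.40 ± 0.14, 0.0924), Usp28 (0.38 ± 0.16, 0.153), Ube2j2 (-0.29 ± 0.13, 0.191), Usp14 (0.31 ± 0.14, 0.201) and Ube2q2l (-0.28 ± 0.12, 0.203).

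Extreme against minimal response females gave 32 called probes (0.34%) and 0 members by limma, with 2 members at an unadjusted p below 0.05. Usp15, a deubiquitinase known from transforming growth factor signalling, differed by 0.60 ± 0.24 (adjusted p = 0.271), Ube2v1 by 0.40 ± 0.19 (0.369), Usp45 by -0.35 ± 0.17 (0.417), Ube2j2 by 0.22 ± 0.12 (0.469) and Usp7 by -0.31 ± 0.18 (0.497). In the wider pathway, 7 of the same 84 probes (8.33%, against 6.36% of all probes) were called in exposed against control females with all 6 controls. Without the 4 that stood apart 0 were, against 0.0106% of all probes, a count added after the data were seen. With all 6 controls 1 E1 probe was higher (Uba7, 0.76 ± 0.20, adjusted p = 0.0127) and 1 lower (Mocs3, -0.47 ± 0.13, 0.0136). Of 47 E3 probes 1 rose (Nedd4, 0.41 ± 0.11, 0.0165) and 2 fell (Siah2, -0.60 ± 0.12, 0.00031, and Syvn1, -0.59 ± 0.14, 0.00508). Otud3 rose among 16 other deubiquitinases (0.59 ± 0.15, 0.00671) and Sumo3 among 15 ubiquitin-like factors (0.53 ± 0.13, 0.00587). Without the 4 controls Uba7 had 0.14, Mocs3 -0.54, Nedd4 0.30, Siah2 -0.63, Syvn1 -0.34, Otud3 0.38 and Sumo3 0.08 (limma, adjusted p 0.484 to 0.994).

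**Figure D3:**
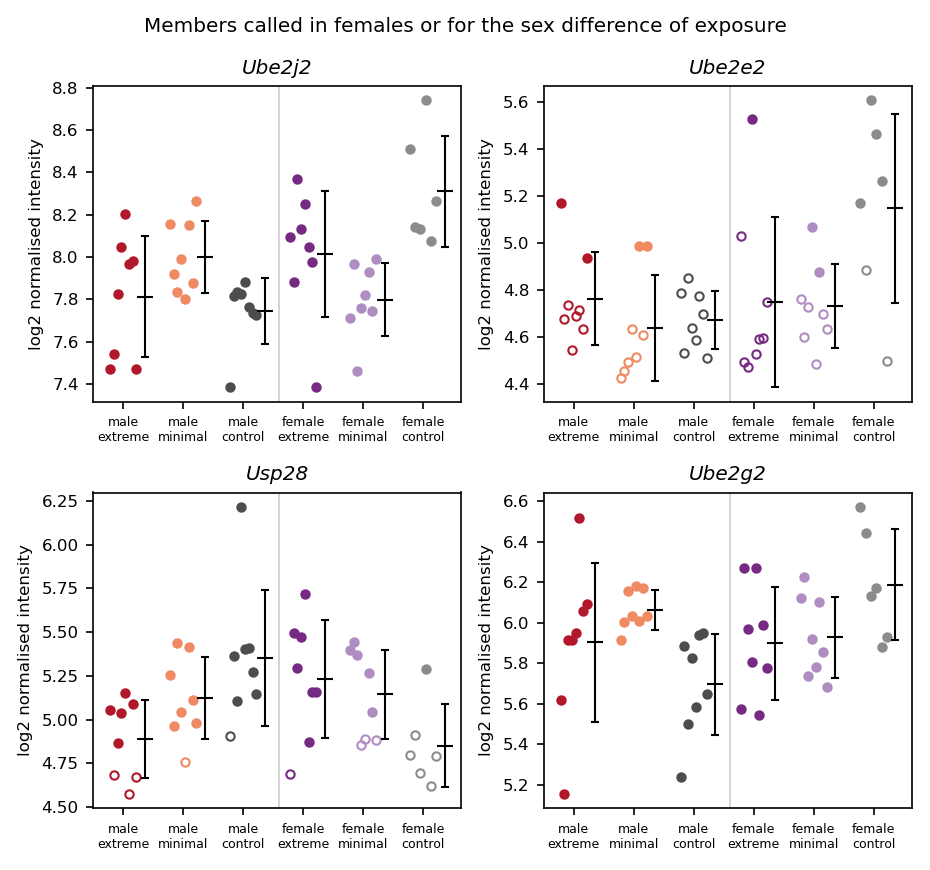
Level of 4 members on every array (y axis, log2 normalised intensity) in the 6 groups (x axis), drawn as in the plot of members called in males. Ube2j2 lies at 7.46 to 7.99 in minimal response females, below the female control range of 8.08 to 8.74, and Usp28 medians are lower in exposed than in control males but higher in exposed than in control females.

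Whether exposure differed between the sexes was tested as the male difference minus the female difference. Over all probes 11.4% were called, 5.6% above and 5.79% below 0, and 4 of 47 members (8.51%) were, 3 above and 1 below. Usp28, a nuclear deubiquitinase known for stabilising Myc in human cells, had a lowest, median and highest level of 4.57, 4.95 and 5.15 in extreme, 4.76, 5.08 and 5.44 in minimal and 4.91, 5.32 and 6.22 in control males. In females it had 4.69, 5.23 and 5.72 in extreme, 4.85, 5.16 and 5.44 in minimal and 4.62, 4.79 and 5.29 in controls. Exposed rats had the lower medians among males and the higher medians among females, with overlap in each sex. Its difference of differences was -0.69 ± 0.19 (limma, adjusted p = 0.0119), and it was detected in 12 of 16 exposed and 7 of 8 control males but in 12 of 16 exposed and 1 of 6 control females.

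Ube2j2 gave a difference of differences of 0.56 ± 0.15 (adjusted p = 0.0128), from 7.91 in exposed and 7.75 in control males against 7.91 and 8.31 in the same classes of females. Ube2g2, a further E2 of endoplasmic reticulum-associated degradation, gave 0.56 ± 0.17 (adjusted p = 0.0267), from 5.98 in exposed and 5.70 in control males against 5.91 and 6.19 in females. Ube2g1 gave 0.82 ± 0.28 (adjusted p = 0.0464). Without the 4 female control arrays that stood apart the values were -0.83, 0.42, 0.28 and 0.62 for Usp28, Ube2j2, Ube2g2 and Ube2g1. Of these 0 were called (adjusted p 0.263 to 0.709), and 0 of all probes. Over 11 alternatives the adjusted p ran from 0.0119 to 0.508 for Usp28, from 0.00476 to 0.641 for Ube2j2, from 0.0201 to 0.709 for Ube2g2 and from 0.0165 to 0.581 for Ube2g1. The Ube2g1 call was lost in 26 of 46 omissions of 1 array and that of Ube2g2 in 3, which were female control replicates 1 and 3 and male control replicate 1 (adjusted p 0.0551 to 0.0788). Among members that did not pass, Usp25, the paralog of Usp28, had 0.67 ± 0.23 (adjusted p = 0.0531). The same test for extreme against minimal response called 0.0319% of probes and 0 members (limma, 3 members at an unadjusted p below 0.05), with Usp8 at the smallest p (0.79 ± 0.30, adjusted p = 0.456), then Ube2j2 (-0.41 ± 0.17, 0.514), Ube2d3 (-0.52 ± 0.26, 0.612), Usp14 (-0.29 ± 0.18, 0.718) and Usp28 (-0.32 ± 0.20, 0.725).

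In the wider pathway the exposure difference between sexes (male minus female) was called for 7 of 84 probes (8.33%, against 11.4% of all probes) with all 6 female controls. Without the 4 that stood apart it was called for 0 of them, and for 0 of all probes. With all 6 it was above 0 for 4 of 47 E3 probes, led by Syvn1 (1.05 ± 0.19, adjusted p = 0.000421), Siah2 (0.53 ± 0.16, 0.021) and Birc2 (0.75 ± 0.23, 0.0276). It was called below 0 for Otud3 among 16 other deubiquitinases (-0.87 ± 0.20, 0.00287) and for 1 of 6 E1 probes, Uba7 (-1.12 ± 0.27, 0.00493), and above 0 for 1 of 15 ubiquitin-like factors, Dcun1d1 (1.23 ± 0.35, 0.0153). Without the 4 controls the values were 0.80 for Syvn1, 0.56 for Siah2, 0.69 for Birc2, -0.66 for Otud3, -0.50 for Uba7 and 0.63 for Dcun1d1 (limma, adjusted p 0.263 to 0.645).

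Male and female rats differed over many of these enzymes, and most of the called ones were Ube2 genes lower in males. Averaged over the 3 classes, 34.1% of all probes were called, 18.9% higher and 15.3% lower in males, and 18 of 47 members (38.3%) were, 3 higher and 15 lower. Of 21 Ube2 probes 12 were lower and 1 higher, and 20 had a difference below 0. Of 26 Usp probes 3 were lower and 2 higher. The median difference was -0.28 over Ube2, -0.06 over Usp and 0.005 over all tested probes. Sex and whatever else differed between the male and female rats in handling cannot be told apart.

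The Nedd8 carriers Ube2m and Ube2f were lower in males. Ube2m (ILMN_1355990) had a lowest, median and highest level of 7.74, 8.00 and 8.71 in extreme, 7.34, 7.86 and 8.18 in minimal and 7.96, 8.20 and 8.63 in control males, against 8.49, 8.66 and 9.03 in extreme, 8.19, 8.57 and 9.07 in minimal and 8.23, 8.59 and 9.43 in control females. In each class every median of males was below the lowest female level, and the minimal classes did not overlap. Ube2m differed by -0.61 ± 0.09 (n = 24 and 22, adjusted p = 5.85e-07, below the female mean in 23 of 24), and was called within the extreme class (-0.61, adjusted p = 0.00638), the minimal class (-0.76, 0.00103) and the control class (-0.48, 0.0216). Ube2f differed by -0.32 ± 0.09 (adjusted p = 0.00396). Nedd8 itself differed by -0.34 ± 0.08 (adjusted p = 0.000864), but without the 4 female controls that stood apart it had -0.21 and did not pass (0.094).

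Ube2d1, a versatile E2 that serves many ligases, was the Ube2 gene that was higher in males. Ube2d1 (ILMN_1351247) had 6.98, 7.25 and 7.72 in extreme, 7.03, 7.35 and 7.60 in minimal and 6.82, 7.50 and 8.18 in control males, against 6.20, 6.86 and 7.28 in extreme, 6.00, 6.73 and 7.08 in minimal and 5.39, 6.74 and 7.00 in control females. All 24 males exceeded the female mean (0.70 ± 0.11, adjusted p = 9.39e-07), with overlap in each class. Its relative Ube2d3 ran the other way (-0.28 ± 0.11, adjusted p = 0.0393).

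Ube2l6, the Isg15 carrier, had 8.44, 9.63 and 10.73 in extreme, 8.16, 8.98 and 9.70 in minimal and 9.20, 9.39 and 10.54 in control males, against 9.66, 10.28 and 10.67 in extreme, 9.23, 9.88 and 10.42 in minimal and 9.21, 10.42 and 11.10 in control females. Every male median lay below the female median of its class, with overlap in each class. It differed by -0.73 ± 0.15 (adjusted p = 9.5e-05), while Usp18, which removes Isg15, had -0.22 ± 0.14 and did not pass (0.23). Usp15 differed by -0.70 ± 0.14 (adjusted p = 0.0001), Ube2c and Ube2s, which start and extend chains for the anaphase-promoting complex, by -0.77 ± 0.24 (0.00972) and -0.43 ± 0.15 (0.0198), and Ube2v1, the inactive partner of Ube2n in lysine-63 chains, by -0.45 ± 0.11 (0.00113). The 2 probes of Ube2r2, a Cdc34-type E2 of cullin ligases, gave like values (-0.35 ± 0.09, 0.00105, and -0.37 ± 0.12, 0.0136). Ube2e3 (-0.40 ± 0.13, 0.0123), Ube2q1 (-0.29 ± 0.10, 0.0171), Ube2j2 (-0.19 ± 0.07, 0.0347), Usp25 (-0.27 ± 0.11, 0.0458) and Usp4, the paralog of Usp15 (-0.25 ± 0.10, 0.042), completed the lower ones. The dimmer probe of Usp3, a histone deubiquitinase, was higher (0.53 ± 0.11, 0.000234), while the brighter one had 0.17 ± 0.07 and did not pass (0.058). Usp8 was higher as well (0.42 ± 0.13, 0.00756).

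Whether the sex contrast differed between exposed and control rats is the same test as the exposure difference between sexes. That test called 4 of 47 members (Usp28, Ube2j2, Ube2g2 and Ube2g1) with all female controls fitted. Without the 4 that stood apart it called 0 of all probes. Likewise, the test of that difference for extreme against minimal response called 0 members. The number of calls for the sex contrast itself varied over classes. The same contrast within 1 class called 2 members in the extreme class (Ube2m and Usp8, with 10.8% of all probes), 4 in the minimal class (Ube2m, Ube2l6, Ube2f and Ube2d1, with 7.72%) and 18 in the control class (31.9% of probes, 13 members shared with the average over classes), a split added after the data were seen. Without the 4 female control arrays 10 members and 22.7% of probes were called, 8 lower and 2 higher in males, all of them among the 18. Ube2m (-0.58, adjusted p = 2.4e-05) and Ube2d1 (0.58, adjusted p = 0.000127) were among these, as were Ube2l6 (-0.50, 0.0262), Usp15 (-0.55, 0.0115), Ube2f, Ube2v1, Ube2q1, both Ube2r2 probes and the dimmer Usp3 probe. Removing 1 array at a time left 15 to 19 members called, and the calls of Ube2j2, Ube2d3, Usp4 and Usp25 were lost in 9, 16, 19 and 27 of 46 omissions.

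Erythroid markers moved with the same contrast, with 10 of 17 probes lower in males, 0 higher and a median of -0.58. At the same time 6 of 11 neutrophil, 5 of 11 T cell and 4 of 8 B cell probes were higher in males. The erythroid score had medians of -0.20, -0.27 and -0.20 in extreme, minimal and control males, with a range over the groups of -0.79 to 0.25, and of 0.30, 0.17 and 0.36 in females, with a range of -0.27 to 0.87. With the erythroid score in the model 2 members were called, Ube2q1 (-0.46 ± 0.14, adjusted p = 0.0259) and Ube2j2 (-0.34 ± 0.10, adjusted p = 0.0259). Calls over all probes fell as well, from 3212 to 871 of 9416, so the drop was not particular to the members. The standard error of Ube2q1 was 0.14 with the score and 0.10 without it. A part of red cells in the sex difference was not tested. Without the score, the sex difference of Ube2q1 was -0.27 in the extreme, -0.007 in the minimal and -0.59 in the control class, and that of Ube2j2 was -0.20, 0.20 and -0.56 (limma, adjusted p = 0.00887 and 0.00072 in the control class, 0.299 to 0.99 in the others). With the score Ube2m had -0.28 ± 0.12 (0.111), Ube2d1 0.41 ± 0.14 (0.0639) and Ube2l6 -0.24 ± 0.19 (0.498). Usp4, Usp15, Ube2v1, Ube2f, Ube2s and both Ube2r2 probes moved to 0 or above, with 0.25, 0.02, 0.07, 0.03, 0.005, 0.02 and 0.15. With 6 scores in the model 0 members were called, and 3 of 9416 probes in all.

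**Figure D4:**
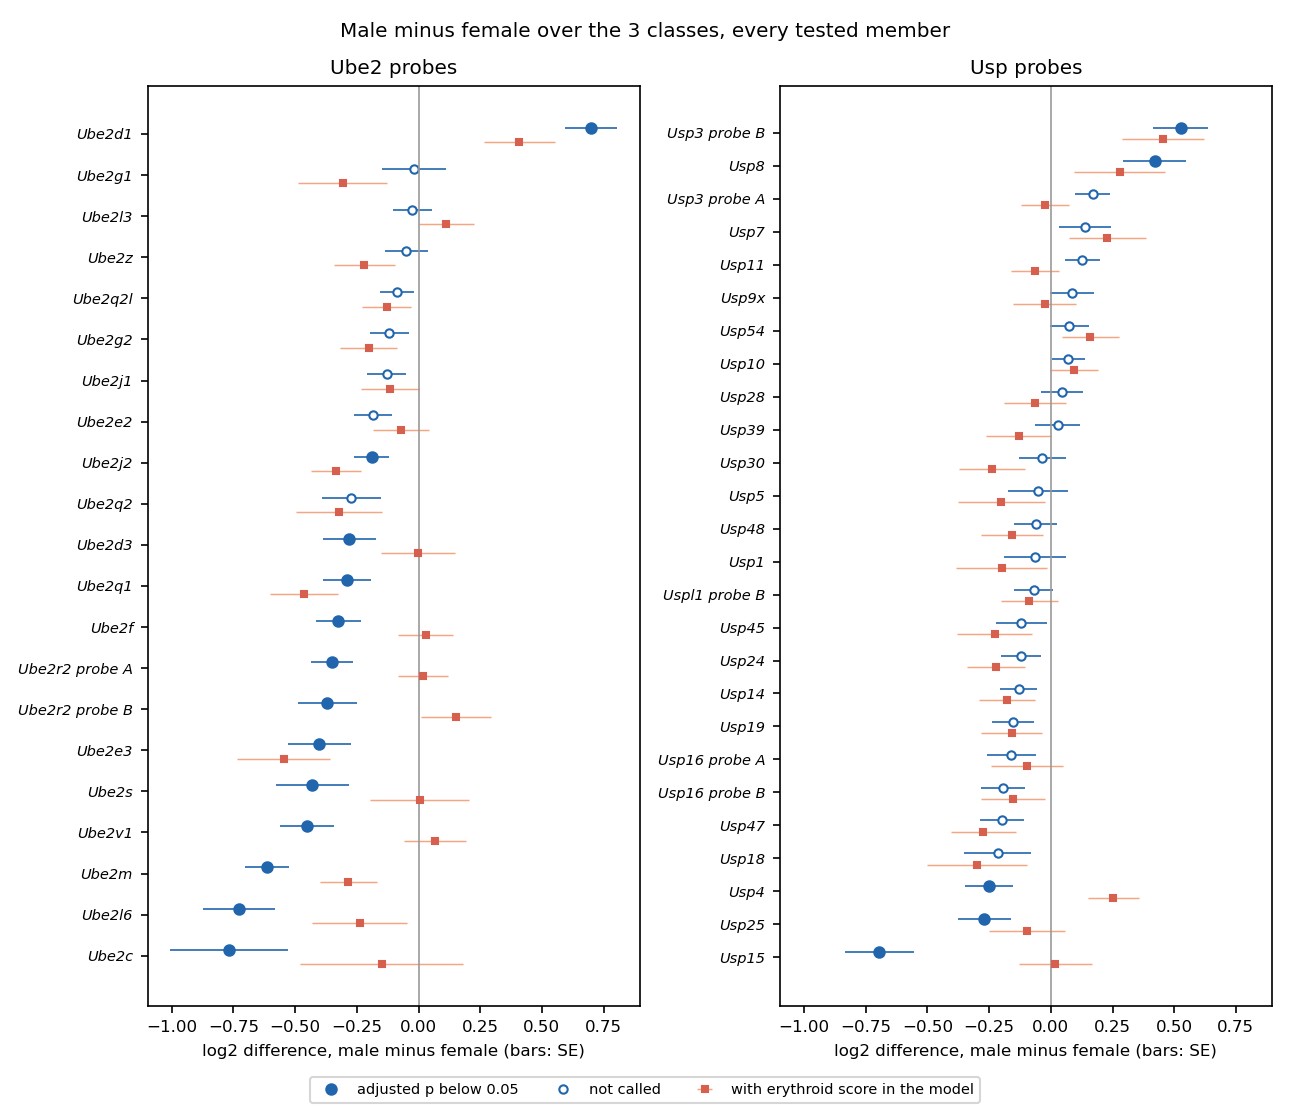
Difference of male from female rats over the 3 classes (x axis, log2, bars are SE) for every tested Ube2 probe (left) and Usp probe (right). Blue circles are the fit of 6 groups, filled where limma's adjusted p was below 0.05, and red squares add the erythroid score to the model. Ube2m moves from -0.61 to -0.28 and Usp15 from -0.70 to 0.02 with the score.

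Within groups, 7 of 47 members passed a test of correlation with the erythroid score from rat to rat. Level and score were each centred on their group means, and 376 relations (47 members by 8 scores) were tested over 46 arrays with 100000 permutations and Benjamini-Hochberg adjustment. Usp4 had Pearson's r of 0.75 and Spearman's rho of 0.74 with the score (permutation p = 1e-05 for each, the smallest the permutations can give, adjusted p = 0.00125), and r was 0.70 without the 2 arrays farthest from the median score. Usp15 had r of 0.72 and rho of 0.78 (permutation p = 1e-05 each, adjusted p = 0.00125) and r of 0.68 without the 2 farthest. Ube2v1 had r of 0.67 and rho of 0.69 (permutation p = 1e-05 each, adjusted p = 0.00125) and 0.65 without them. These had the 3 highest r with the score, and all are among the members lower in males. The arrays share their normalization, so the points are not free of a common scale.

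Both Ube2r2 probes (r of 0.64 and 0.62, permutation p = 2e-05 and 8e-05, adjusted p = 0.00188 and 0.00376), Ube2f (r of 0.58, permutation p = 1e-04, adjusted p = 0.00376) and Ube2m (r of 0.54, permutation p = 0.00063, adjusted p = 0.0148) also passed, with rho of 0.64, 0.66, 0.57 and 0.49. Their r without the 2 farthest arrays was 0.60, 0.59, 0.55 and 0.54. In all, 5 of 21 Ube2 and 2 of 26 Usp probes passed by Pearson's r in the positive direction and 0 in the negative. Those 7 are 14.9% of the members, and 3.51% of the 9400 tested probes outside the score had an r of 0.54 or more, a share added after the data were seen and given as a description. The median r was -0.09 over the members and -0.04 over those probes. Without the 6 female control arrays 4 Ube2 and 2 Usp probes passed, and Ube2m did not (r of 0.47, permutation p = 0.00317, adjusted p = 0.0662). Of the members called in exposed males, r with the score without the female controls was -0.27 for Usp14, -0.33 for Ube2g1 and -0.41 for Ube2q1 (permutation p = 0.0789, 0.0308 and 0.0201, adjusted p = 0.357, 0.258 and 0.189). None of these passed, and r for Ube2e3 and Usp45 is not given here. A part of red cells in the male rise was not tested.

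**Figure D5:**
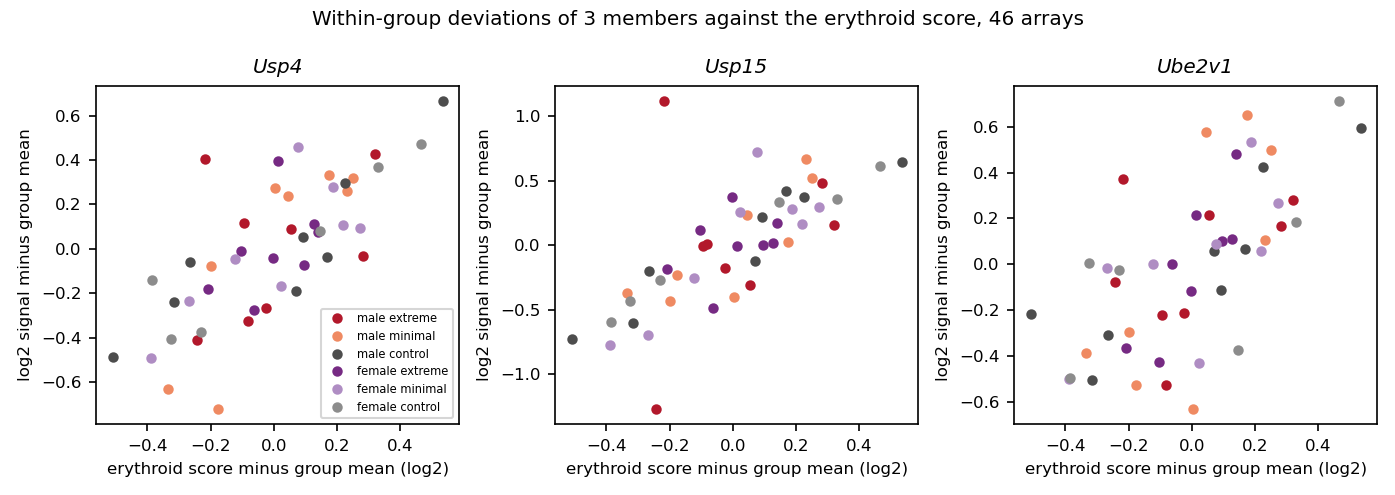
Level of Usp4, Usp15 and Ube2v1 (y axes, log2, minus the group mean) against the erythroid score (x axis, log2, minus the group mean) on 46 arrays coloured by group. The points rise together in each panel, with r of 0.75, 0.72 and 0.67.

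Several well-known members passed none of the exposure tests. Usp18 had medians of 5.27, 5.53 and 5.27 in extreme, minimal and control males and 5.45, 5.73 and 5.60 in the same classes of females. Usp7, which acts on Mdm2 and p53, had 6.04, 6.09 and 6.30 in males and 5.98, 6.21 and 5.86 in females in the same order. Usp48 had 7.22, 7.39 and 7.41 in males and 7.44, 7.44 and 7.50 in females. For each of these 3 genes the 6 group ranges overlapped.
Usp9x (4.89, 5.15 and 4.91 in males, 4.81, 4.84 and 4.84 in females) and Usp1, the Fanconi pathway deubiquitinase (4.67, 4.74 and 4.71, and 4.73, 4.85 and 4.67), were dim and were detected on 24 and 15 of 46 arrays. Ube2j1, detected on 10 arrays, had 4.59, 4.82 and 4.47 in males and 4.60, 4.71 and 4.86 in females. The probes of Usp16, a histone H2A deubiquitinase, had 5.93, 5.96 and 5.63 (brighter probe) and 4.87, 4.88 and 4.92 (dimmer probe) in males, and 6.05, 5.92 and 6.14, and 4.95, 5.03 and 5.21, in females. A p that misses the threshold does not show equal levels for any of them.

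Group medians of members that differed by sex, none called in an exposure contrast, were as follows. Usp4 had medians of 10.57, 10.35 and 10.40 in extreme, minimal and control males and 10.57, 10.53 and 10.71 in females. Usp15 had 10.55, 9.98 and 9.93 in males and 11.06, 10.66 and 11.13 in females. Ube2c had 10.20, 10.16 and 9.67 in males and 10.52, 11.05 and 10.65 in females, and Ube2s 10.61, 10.68 and 10.79, and 11.29, 11.34 and 11.08.
Single Ube2c levels ran from 7.53 to 12.11, in extreme response males and control females.
Ube2v1 had 7.77, 7.41 and 7.73 in males and 8.23, 7.81 and 8.37 in females, Ube2d3 5.51, 5.65 and 5.42, and 5.74, 5.41 and 5.82, and Usp25 6.07, 5.94 and 5.48, and 5.92, 6.09 and 6.24.

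The remaining 22 member probes did not reach the signal filter. Of these, 10 were detected on 0 arrays, among them those of Ube2a, Ube2b and Ube2t, E2s of DNA damage tolerance and repair, and 12 on 1 to 6 arrays, among them Ube2k, Ube2n and Ube2v2. Of the tested 47, 21 were detected on all 46 arrays (12 Ube2 and 9 Usp) and 26 on 7 to 45. No level, difference or absence of expression is stated for the 22.

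In the sex contrast 33 of the 84 probes of the wider pathway were called (39.3%, against 34.1% of all probes), and 27 (32.1%, against 22.7%) without the 4 female controls that stood apart. Of 47 E3 probes 6 were higher and 13 lower in males, led by Btrc (-0.99 ± 0.12, adjusted p = 8.45e-09), Marchf8 (-0.73 ± 0.11, 4.92e-07) and Fbxo7 (-0.52 ± 0.08, 5.22e-07). Of 15 ubiquitin-like factors 4 were higher and 5 lower, with Dcun1d1, which promotes neddylation of cullins, at -0.93 ± 0.16 (7.79e-06), the Sumo ligase Pias1 at 0.56 ± 0.10 (8.66e-06) and Urm1 at 0.46 ± 0.10 (0.000181). Of the 16 probes listed as other deubiquitinases 1 was higher and 3 lower, led by Otud5 (-0.51 ± 0.12, 0.000451), Yod1 (-0.50 ± 0.13, 0.00248) and Cops6 (0.22 ± 0.06, 0.00455). Cops6, the higher one, is a subunit of the COP9 signalosome and not itself a deubiquitinase. Of 6 E1 probes 1 was higher, Atg7 (0.58 ± 0.10, 8.36e-06). The share called was 40.4% for the E3 probes, 60% for the ubiquitin-like factors, 25% for the other deubiquitinases and 16.7% for the E1 probes. Among the genes named here, Otud5 (-0.36, adjusted p = 0.0515) and Cops6 (0.17, 0.0872) did not pass without the 4 controls, while Btrc (-0.87), Marchf8 (-0.63), Fbxo7 (-0.45), Dcun1d1 (-0.73), Pias1 (0.57), Urm1 (0.37), Yod1 (-0.39) and Atg7 (0.55) did.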

How the data were processed

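Whole-blood RNA of 47 rats was hybridised to Illumina rat bead arrays, with globin messenger RNA depleted, per the labels' protocols. The authors deposited 1 non-normalized intensity and a detection p-value per probe and array, per the file headers. They also deposited a table of log2 values, which equalled quantile-normalized log2 intensities without background correction (largest difference 5e-09). Scanner and chip position were not given in the sources used here.

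Intensities were corrected with limma's neqc (normexp with controls inferred from detection p, offset 16, which draws differences of dim probes toward 0), then quantile normalized and logged. A probe was tested when detected (p below 0.05) on at least 7 of 46 arrays. A model of 6 group means with 40 residual degrees of freedom gave 11 contrasts in limma 3.58.1 (R 4.3.3), with Benjamini-Hochberg adjustment over 9416 probes. Every adjusted p-value given for a gene comes from limma. Dixon's ratio was used to look for outlying arrays. A marker score is the mean of centred log2 levels. No 2 arrays held identical values (highest correlation 0.986). The array of female control replicate 2 was left out because earlier results of these data, known beforehand, showed no usable signal on it, and the fit of all 47 arrays is an alternative. Symbols came from the platform annotation.

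The members, gene lists, tests and the 4 female control arrays treated apart were chosen with earlier results of these data known. Named genes were the called members, the 5 of smallest p where fewer than 5 passed, and a fixed list of well-known members. The fits were tested on simulated data. Replicate numbers follow the order of the samples within a group. They are not in the labels and do not pair rats. Alternatives are in the closing section.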

Additional observations from a re-analysis of the deposited data

Results flagged for a closer look

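Among 10 called members checked in 6 groups each, 3 of 60 groups held a rat far from the rest by Dixon's ratio, and chance gives about 1 in 20. Ube2q1 lay at 4.73 in female minimal replicate 7, against 5.72 to 6.12 in the other 7 rats. Ube2j2 lay at 7.38 in male control replicate 1, against 7.73 to 7.88 in the others. Usp28 lay at 6.22 in male control replicate 4, against 4.91 to 5.41 in the others.

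The difference of exposed from control rats differed between males and females for 4 members in limma's test of that difference (male minus female). It was -0.69 for Usp28 (adjusted p = 0.0119), 0.56 for Ube2j2 (adjusted p = 0.0128), 0.56 for Ube2g2 (adjusted p = 0.0267) and 0.82 for Ube2g1 (adjusted p = 0.0464). Without the 4 female control arrays that stood apart, 0 of these were called, and 0 of all tested probes.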

How the results depend on the processing

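Counts are members called by limma. With 75th percentile scaling they were 1 in exposed males (5 in the fit reported), 3 in minimal response males (6), 0 in exposed females (2), 0 in minimal response females (1) and 0 for the exposure difference between sexes (4). With all 47 arrays they were 1, 1, 1 (Usp14, higher), 0 and 1 in the same order, and 5 for sex (18). Without the 4 female control arrays they were 1 in extreme response males (0), 0 in exposed females, 0 in minimal response females, 0 for the difference between sexes and 10 for sex. With array weights they were 8 in exposed, 2 in extreme and 11 in minimal response males and 0 in exposed females. With no detection filter they were 3 in exposed males, 1 in exposed females and 2 for the difference between sexes. The deposited log2 values gave 1 in exposed females, and array brightness as a covariate 0 in exposed and 0 in minimal response females. The erythroid score as a covariate gave 1 in extreme response males, 1 in exposed females and 2 for sex, and 6 scores gave 2 in extreme response males and 0 in exposed females, in minimal response females, for the difference between sexes and for sex. The sex contrast within 1 class, added after the data were seen, gave 2 (extreme) and 4 (minimal). The cause was not tested. Counts over all probes are given below for some of these settings only. For the others they are not given here, and a changed count of members is not read as a result about the members.

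Replicate numbers follow the order of the samples within a group and name no pairs of rats. Deviations of same-numbered rats of different groups had a median correlation of -0.0164 (110 pairs), against -0.0017 for other pairs (770). The replicate block gave 1 member in exposed females, 2 for the difference between sexes, 4 in exposed males and 16 for sex. Its counts over all probes are not given here, so these counts are not read as a result about the members.

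Leaving out 1 array at a time gave, with the range over all probes in parentheses, 3 to 7 members in exposed (793 to 1373), 0 to 2 in extreme (0 to 302) and 5 to 7 in minimal response males (1089 to 1553), 0 to 2 in exposed (409 to 803), 0 to 1 in extreme (344 to 694) and 1 to 3 in minimal response females (352 to 671), 2 to 7 for the difference between sexes (740 to 1290) and 15 to 19 for sex (2999 to 3371). Extreme against minimal response gave 0 members throughout (0 to 92 probes in males, 7 to 69 in females).

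Signs turned as follows. With all 47 arrays Ube2v1 had 0.0814 in exposed females, Usp15 0.21 in minimal response females and Usp4 0.0402 for sex. With 75th percentile scaling Ube2j2 had -0.0042 for extreme minus minimal response females and Usp14 0.0581 for its difference between sexes. Within the minimal class the sex difference was 0.20 for Ube2j2, -0.0536 for Usp8 and 0.12 for Ube2d3. With the erythroid score the sex difference was 0.0171 for Ube2r2 probe A, 0.15 for probe B, 0.0651 for Ube2v1, 0.0295 for Ube2f, 0.0185 for Usp15, 0.0046 for Ube2s and 0.25 for Usp4. With 6 scores it was 0.30 for Ube2r2 probe A, 0.32 for probe B, 0.29 for Ube2v1, 0.0535 for Usp25, 0.25 for Ube2f, 0.34 for Usp15, 0.26 for Ube2s and 0.52 for Usp4.

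Over all probes, calls in exposed males numbered 1055, but 167 with 75th percentile scaling and 119 with all 47 arrays. In exposed females they numbered 599, but 1 without the 4 controls and 0 with 6 scores, and for sex 3212, but 871 with the erythroid score, 3 with 6 scores, 1975 with all 47 arrays and 2136 without the 4 controls. For the difference between sexes they numbered 1072, but 499 with 75th percentile scaling, 543 with all 47 arrays and 0 without the 4 controls. The share of calls that were higher was 68.9% with 75th percentile scaling in exposed males (55.6% as reported), 91.5% in exposed females (67.1%) and 10.6% for the difference between sexes (49.2%). With all 47 arrays it was 84.2% in exposed females, 17.3% for the difference between sexes and 71.2% for sex (55.3%), and the median of all probes moved to 0.11 in exposed females. Dim probes near the detection limit, such as Ube2e2, limit what differences can be seen.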

Other observations

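Members also passed with lymphocyte marker scores from rat to rat, among the same 376 relations of group-centred levels and marker scores (46 arrays). Usp48, a deubiquitinase of the nucleus, rose with the T cell score (Pearson's r 0.60, permutation p = 4e-05, Spearman's rho 0.62, permutation p = 2e-05, adjusted p = 0.00251 and 0.00125), and r was 0.69 without the 2 arrays farthest from the median score. Ube2d1 did so too (r 0.58, permutation p = 0.00034, rho 0.66, permutation p = 2e-05, adjusted p = 0.00994 and 0.00125, r 0.62 without the 2 arrays), as did Usp3 probe A (r 0.55, permutation p = 1e-04, rho 0.56, permutation p = 0.00017, adjusted p = 0.00376 and 0.00492, r 0.48). Ube2f, which also passed with the erythroid score, fell with the T cell score (r -0.53, permutation p = 0.00037, rho -0.53, permutation p = 0.00047, adjusted p = 0.00994 and 0.0118, r -0.49). The 3 that rose are 6.38% of the members, and 1.56% of the 9405 tested probes outside the score had an r of 0.55 or more. The 1 that fell is 2.13%, against 0.319% at -0.53 or lower, given as a description. Without the female controls (40 arrays) Usp48 had r 0.67, Ube2d1 0.59 and Usp3 probe A 0.49, with permutation p adjusted to 0.00188, 0.0144 and 0.0437.

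With the B cell score, 5 of the 7 members that passed with the erythroid score passed in the other direction: r was -0.61 for Ube2r2 probe A, -0.61 for Usp15, -0.59 for Ube2v1, -0.55 for Usp4 and -0.52 for Ube2r2 probe B, with rho of -0.60, -0.63, -0.58, -0.54 and -0.59 and permutation p adjusted to 0.00322, 0.00226, 0.00376, 0.00994 and 0.013. Without the 2 arrays farthest from the median score r was -0.58, -0.58, -0.55, -0.50 and -0.53. The other two, Ube2f (r -0.46, permutation p = 0.00243, rho -0.42, adjusted p = 0.0508) and Ube2m (r -0.42, permutation p = 0.0067, rho -0.46, adjusted p = 0.0969), did not pass. Of all tested probes outside the score 2.02% had an r of -0.52 or lower. Without the female controls 3 of the 5 passed, Usp15, Ube2r2 probe A and Ube2v1. The B cell score rested on 8 markers, 2 of them detected on all arrays. How the B cell and erythroid scores run with each other was not tested. The relations with the B cell score are thus not shown to be separate from those with the erythroid score.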
